A study of Mus musculus with 18 samples.

Results

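The comparison set the 3 intermediate days of a mouse primed-to-naive transition against the pluripotent states at its ends. It used all 18 libraries of the series, 9 on each side. The intermediate side held D3, D5 and D8, cells labelled as transient, taken 3, 5 and 8 days after the start, with 3 libraries each. The end-state side held EpiSC, primed stem cells taken at day 0, rES, labelled as naive stem cells and listed after D8, and ESC, mouse embryonic stem cells, again with 3 libraries each. All cells came from mouse embryo, per the labels, which name no strain, genotype, clone, medium or feeder layer for any group. The question was which genes separated the whole course from both of its ends. The mean contrast compared the average of the 3 intermediate group means with the average of the 3 end-state group means. The stricter 9-pair test asked that each of the 3 days differ from each of the 3 end states in one direction. It is strict, and a gene that did not pass it is not shown to be alike on both sides.

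Pluripotent cells can form all tissues of the embryo and exist in a naive state, found in the epiblast before implantation, and a primed state, found after it. Both states rest on a shared set of transcription factors around Pou5f1, Sox2 and Nanog, while naive and primed cells each add factors of their own. Cells that lose this set can enter other lineages, among them trophoblast, the lineage that forms the placenta. Pluripotent cells also divide fast, with high levels of DNA replication and ribosome genes.

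The libraries held 58362230 to 101607352 counts. Of 25239 gene symbols, 17545 had enough counts to be tested. Levels are CPM, gene counts scaled to the size of the library with TMM factors, and differences are log2 values with an approximate standard error, positive where the intermediate days were higher. Whether the replicates of a group came from different cultures is not stated, and the p-values cover no more than the spread among these libraries. EpiSC had the primed markers Otx2 and Fgf5 at 85.2 ± 0.987 and 64.2 ± 5.07 CPM (mean ± SD, n = 3) and no count of the naive marker Zfp42, which stood at 265 ± 3.99 CPM in rES and 318 ± 4.32 CPM in ESC. The first principal component, with 45.3% of the variance, placed the 9 intermediate libraries at -41.9 or below and the 9 end-state libraries at -34.1 or above. That margin was narrow because EpiSC lay at -34.1 to -27.5, close to D8 replicate 3 at -41.9, while rES and ESC lay at 170.8 to 181.1. D8 replicate 3 stood apart from its 2 fellow libraries, at -73.7 and -68.0, in the direction of the end states.

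**Figure D1:**
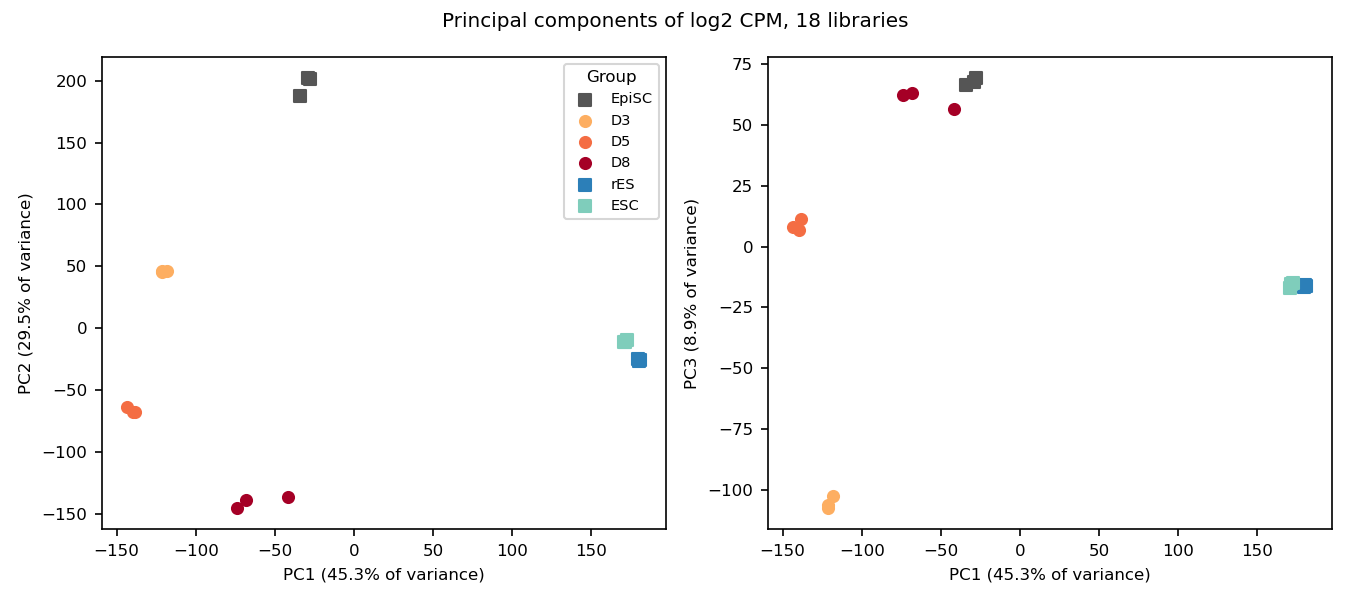
Principal components of log2 CPM in the 18 libraries, the first against the second (left) and the first against the third (right), with circles for the intermediate days and squares for the end states. EpiSC, at -34.1 to -27.5 on the first component, lies beside D8 replicate 3 at -41.9, and the rES and ESC libraries lie at 170.8 or above.

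By edgeR's quasi-likelihood test with Benjamini-Hochberg adjustment at 0.05, the mean contrast called 13475 genes (76.8% of the genes tested), 7370 higher on the intermediate days (42.0%) and 6105 lower (34.8%). At least 2-fold differences were found for 4417 genes higher (25.2%) and 2583 lower (14.7%). The median over all genes tested was 0.07 on the log2 scale. A call in the mean contrast says little about the whole course, since 13413 genes (76.4%) also differed among D3, D5 and D8 and 13394 (76.3%) differed among EpiSC, rES and ESC. The 9-pair test passed 2907 genes (16.6%), 1926 as higher at every day than in every end state (11.0%) and 981 as lower (5.59%). Without any test, 3581 genes (20.4%) had no overlap between the sides: 2284 genes (13.0%) had all 9 intermediate libraries above all 9 end-state libraries and 1297 (7.39%) had them all below. Without D8 replicate 3, the 9-pair test passed 1962 genes as higher and 1090 as lower. With upper-quartile scaling the median of all genes was -0.06, and the mean contrast called 6684 genes higher and 6864 lower.

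The differences of the genes higher throughout were larger in the median than those of the genes lower throughout. The median difference of the mean contrast was 2.48 among the 1926 higher genes and -1.23 among the 981 lower genes. The smallest of the 9 pairwise differences reached 2-fold for 1065 of the higher and 189 of the lower genes. The end state nearest to the intermediate days was EpiSC for 1016 of the higher genes, rES for 505 and ESC for 405. For the lower genes it was rES for 389, EpiSC for 351 and ESC for 241. The highest day was D5 for 814 of the higher genes, D8 for 757 and D3 for 355, and the lowest day was D5 for 464 of the lower genes, D8 for 382 and D3 for 135. Of the 1926 higher genes, 1627 were called different among the days and 1483 among the end states. Of the 981 lower genes, 803 and 708 were. Only 113 higher and 60 lower genes were called in neither test, so most members of the common set still varied among the days, among the end states or both.

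The 12 genes that stood highest by their smallest pairwise difference were Klk7, Krt7, Tns4, Sct, Igf2, Plac1, Nxf7, Chdh, Krt14, Dmkn, Igf2os and Gata2. They include epithelial genes, placental genes, an imprinted growth factor and a choline enzyme. The 12 that stood lowest were Zic5, Maneal, Stmn2, Zic2, Pycr1, Slc27a2, Xkr5, Lrp11, Gbx2, Gprasp2, Mgat5b and Nefm, among them ZIC and homeobox factors and genes of neurons. By the rule that chose them, none of these 24 genes had a library of one side within the range of the other. The rule that chose them used the same values, so their values are given as a description.

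The stretches of 250 bases before the RefSeq start (GRCm38.p6, the assembly also called mm10) show what precedes the leading genes whose window is free of annotated exons, or, for Zic5, the 231 bases before its GENCODE exon. Capitals mark matches to the letters of motifs named further below, on either strand.
Klk7, chr7:43811044-43811293, plus strand: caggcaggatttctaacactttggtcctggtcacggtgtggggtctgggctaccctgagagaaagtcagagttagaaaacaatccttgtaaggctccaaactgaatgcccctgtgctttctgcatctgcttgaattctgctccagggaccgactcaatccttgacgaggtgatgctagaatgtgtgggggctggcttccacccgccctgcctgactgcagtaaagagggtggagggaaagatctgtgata
Zic5, chr14:122465678-122465908, minus strand: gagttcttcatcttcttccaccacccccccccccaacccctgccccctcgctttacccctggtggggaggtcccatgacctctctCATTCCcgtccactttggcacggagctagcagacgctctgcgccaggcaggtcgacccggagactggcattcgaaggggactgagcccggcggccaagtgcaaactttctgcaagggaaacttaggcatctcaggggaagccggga
Maneal, chr4:124862172-124862421, minus strand: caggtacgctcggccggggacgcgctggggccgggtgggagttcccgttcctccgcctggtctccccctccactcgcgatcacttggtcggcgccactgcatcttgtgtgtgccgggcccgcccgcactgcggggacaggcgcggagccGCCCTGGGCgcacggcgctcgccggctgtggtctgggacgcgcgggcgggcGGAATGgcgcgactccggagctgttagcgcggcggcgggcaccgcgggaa
The Klk7 window held none of the motifs. The Zic5 window held CATTCC, the reverse complement of the TEAD letters, and the Maneal window held GCCCTGGGC, an AP-2 match, and GGAATG, a TEAD match. The Krt7 window held 2 AP-2 matches, and its sequence is not shown because 205 of its 250 bases lie in annotated exons.

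Klk7 encodes a kallikrein-related serine protease of the epidermis and lies on chromosome 7 at 43811294 to 43816359. Its libraries held 58.7, 56.9 and 64.6 CPM at D3, 171, 178 and 174 CPM at D5 and 137, 115 and 91.3 CPM at D8. In the end states they held 0, 0.0951 and 0.156 CPM in EpiSC, 0, 0 and 0 CPM in rES and 0, 0 and 0 CPM in ESC. Klk7 was at or near 0 in every end-state library and highest at D5 (9-pair adjusted p = 2.27e-11). Krt7, a keratin of simple epithelia and trophoblast on chromosome 15 at 101411043 to 101430313, stood at 229.6, 285 and 298 CPM at D3, 419, 418 and 384 CPM at D5 and 469, 404 and 336 CPM at D8. Its end-state values were 0.466, 0.333 and 1.18 CPM in EpiSC, 1.38, 0.610 and 1.41 CPM in rES and 0.400, 0.278 and 0.537 CPM in ESC. No group of one side came near the other, and the mean contrast was 8.96 ± 0.19 on the log2 scale (9-pair adjusted p = 2.56e-12). Krt14, a keratin of basal cells in layered epithelia, had values of 41.2, 49.2 and 57.9 CPM at D3, 28.6, 24.2 and 21.5 CPM at D5 and 49.9, 44.4 and 44 CPM at D8 and no count in rES or ESC. In EpiSC its 3 libraries held 0, 0.111 and 0.358 CPM. Dmkn, which encodes a secreted protein of the skin, ranged over 39.8, 112 and 213 CPM (lowest, median and highest of 9 libraries) against 0, 0 and 0.654 CPM in the end states. Tns4, a tensin of cell-matrix adhesions, ranged over 42.5, 50.9 and 78.8 CPM against 0, 0 and 0.436 CPM. The days of Tns4 were not called different (adjusted p = 0.132).

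Igf2, an imprinted growth factor of the fetus and placenta, had the highest level of the 12. Its libraries held 11489, 11859 and 12554 CPM at D3, 13778, 13712 and 13553 CPM at D5 and 11772, 11203 and 9278 CPM at D8. In the end states they held 56.9, 49.1 and 74.8 CPM in EpiSC, 1.59, 1.88 and 1.55 CPM in rES and 8.86, 10.02 and 7.02 CPM in ESC. The end states were ordered EpiSC, ESC, rES, all far below the lowest intermediate library, D8 replicate 3, with a mean contrast of 10.30 ± 0.11 (9-pair adjusted p = 2.12e-15). Igf2os lies on the opposite strand and shares 98 exon bases with Igf2, and it ranged over 193, 252 and 496 CPM against 0, 0.217 and 2.41 CPM. How reads were assigned to strands is not given, so its count is uncertain, and a second gene model on the strand of Igf2 covers 62.8% of the exon bases of Igf2. Plac1, an X-linked gene of the placenta, stood at 77.4, 63 and 52.2 CPM at D3, 151, 166 and 154 CPM at D5 and 86.1, 86.7 and 62.4 CPM at D8, and its 9 end-state libraries ranged over 0, 0.246 and 0.576 CPM. Gata2, a transcription factor of trophoblast and blood precursors, stood at 344, 387 and 372 CPM at D3, 935, 824 and 811 CPM at D5 and 509, 449.6 and 432 CPM at D8. Its end-state range was 1.39, 2.14 and 3.74 CPM, so D5 was the highest group and all 9 intermediate libraries lay far above it. Nxf7, of the nuclear RNA export factor family, ranged over 132, 461 and 739 CPM against 0.0642, 0.495 and 1.19 CPM. Chdh, which oxidises choline on the way to betaine, ranged over 26.8, 61.9 and 86.2 CPM against 0, 0 and 0.291 CPM. Sct, the precursor of the hormone secretin, ranged over 13.5, 17.8 and 41.9 CPM against 0, 0 and 0.140 CPM and was highest at D3.

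Of the genes lower throughout, Zic5 and Zic2 encode zinc-finger factors active in epiblast and neural precursors. Zic2 held 0.718, 1.35 and 1.05 CPM at D3, 0.561, 0.539 and 0.455 CPM at D5 and 6.04, 9.76 and 18.4 CPM at D8. Its end-state values were 249, 253 and 263 CPM in EpiSC, 77.3, 75.9 and 80.3 CPM in rES and 73.2, 71 and 62.3 CPM in ESC. D5 was lowest and D8 partly recovered, with D8 replicate 3 the highest intermediate library, and the mean contrast was -5.88 ± 0.18 (9-pair adjusted p = 2.79e-07). Zic5, on chromosome 14 at 122456795 to 122465677, followed the same order at 0.130, 0.444 and 0.385 CPM at D3, 0.321, 0 and 0.202 CPM at D5 and 1.53, 2.66 and 4.56 CPM at D8, against 60.5, 55.9 and 68.4 CPM in EpiSC, 26.1, 22.7 and 19.1 CPM in rES and 19.9, 21.6 and 18 CPM in ESC. Maneal, a gene related to an endomannosidase on chromosome 4 at 124855239 to 124862171, held 1.01, 1.02 and 1.03 CPM at D3, 0.257, 0 and 0.0506 CPM at D5 and 0.863, 1.65 and 2.56 CPM at D8, against 10.7, 8.86 and 12.6 CPM in EpiSC, 12.9, 11.3 and 13.1 CPM in rES and 16.6, 18.2 and 17 CPM in ESC. Its end states were not called different (adjusted p = 0.165), and every day was below all of them. Pycr1, which makes proline in mitochondria, had about the same level on all 3 days, 7.14, 7.6 and 7.38 CPM at D3, 7.83, 3.69 and 6.43 CPM at D5 and 4.8, 5.5 and 7.26 CPM at D8. Its end-state libraries ranged over 42, 45 and 82.8 CPM, a mean contrast of -3.09 ± 0.11 (9-pair adjusted p = 6.73e-09). Lrp11, of the lipoprotein receptor family, ranged over 2.09, 5.19 and 8.25 CPM against 31.4, 33.8 and 38.1 CPM, with end states that were not called different (adjusted p = 0.798).

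Gbx2, a homeobox factor, ranged over 0.273, 4.22 and 7.39 CPM on the intermediate days and 28.6, 47.4 and 61.8 CPM in the end states. The fatty acid transporter Slc27a2 ranged over 0, 0.584 and 3.63 CPM against 16, 29.5 and 79.5 CPM. Stmn2, a microtubule regulator of neurons, ranged over 3.1, 7.94 and 17.1 CPM against 86.8, 97.9 and 149 CPM. These 3 genes and Xkr5, Gprasp2 and Mgat5b were lowest at D5 in mean level. Nefm, a neurofilament subunit, ranged over 0.147, 0.896 and 2.15 CPM against 7.44, 12 and 31.1 CPM. Xkr5, Gprasp2 and Mgat5b had intermediate medians of 1.51, 3.34 and 0.998 CPM and end-state medians of 26.4, 20.4 and 12 CPM. An RNA on the opposite strand covers 43.5% of the exon bases of Gbx2, so its count is uncertain without strand.

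**Figure D2:**
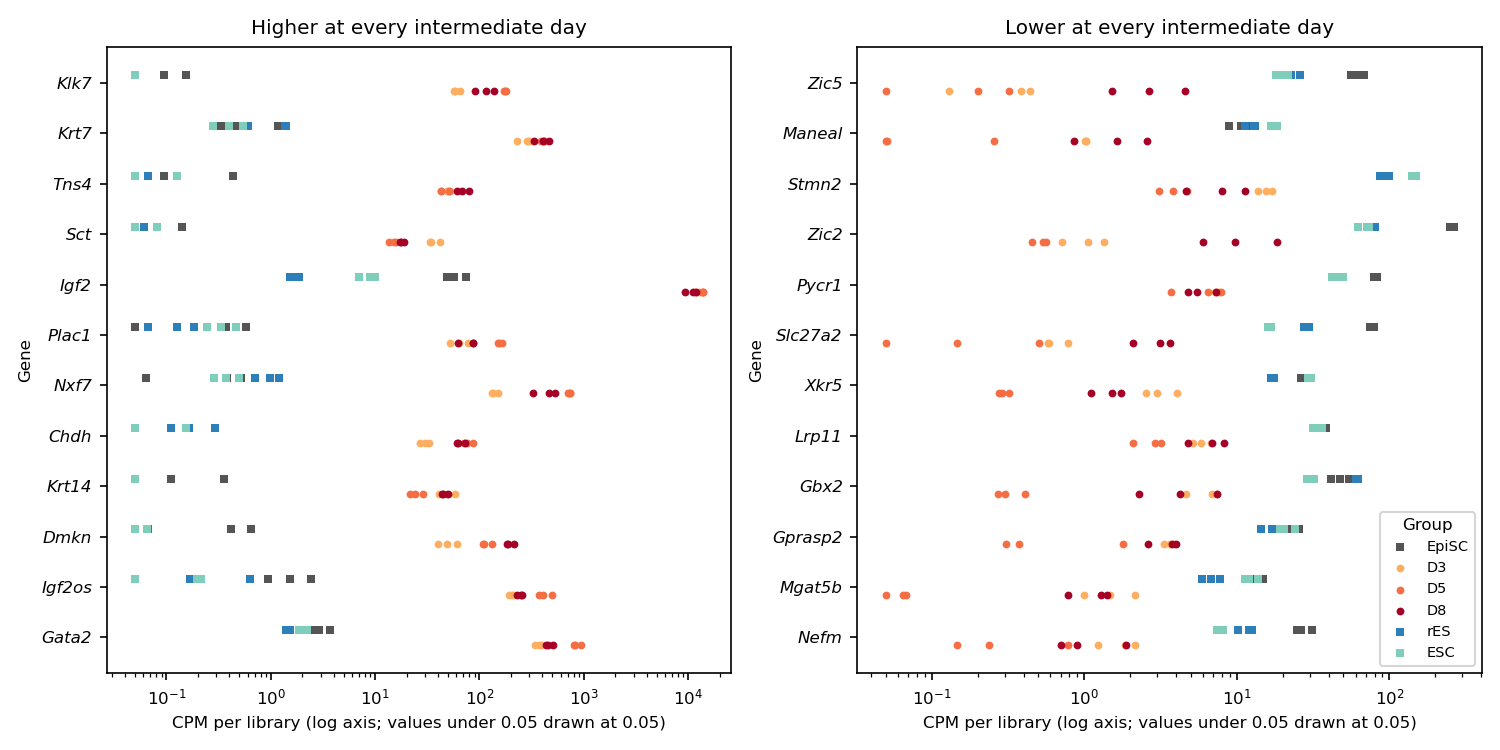
CPM in each of the 18 libraries (log axis, values under 0.05 drawn at 0.05) for the 12 genes highest (left) and lowest (right) on the intermediate days by their smallest pairwise difference, with circles for D3, D5 and D8 and squares for EpiSC, rES and ESC. The 2 sides do not overlap for any of the 24 genes, which the rule that chose them required, and the gaps are wider for the higher genes.

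Factors shared by naive and primed pluripotency were lower on the intermediate days in the mean contrast, and fewer were lower at every day. All 15 of the list were called lower in the mean contrast (34.8% of all genes were), and 6 of 15 (40.00%) passed the 9-pair test as lower (5.59% of all genes did). Among the 6 were Pou5f1, Sall4, Foxd3, L1td1 and Zscan10, and the list median was -2.25 against 0.07 for all genes. Pou5f1, the central factor of pluripotency, held 15.6, 30.5 and 36.6 CPM at D3, 5.1, 3.63 and 12.3 CPM at D5 and 75.2, 59.2 and 145 CPM at D8. In the end states it held 335, 266 and 392 CPM in EpiSC, 337, 331 and 347 CPM in rES and 327, 328 and 332 CPM in ESC. The 3 end states were not called different for Pou5f1 (adjusted p = 1), and the intermediate days lay below all of them with the lowest level at D5 (mean contrast -3.67 ± 0.23, 9-pair adjusted p = 0.00104). Foxd3, a forkhead repressor of the epiblast, fell furthest within the list, to 0.130, 0.184 and 0.114 CPM at D3, 0.626, 0.212 and 0.287 CPM at D5 and 3.7, 4.11 and 7.83 CPM at D8, against 28.6, 31.3 and 33.6 CPM in EpiSC, 10.7, 11 and 12.3 CPM in rES and 15.1, 13.9 and 13.8 CPM in ESC (mean contrast -4.58 ± 0.18). Sall4, a zinc-finger partner of Pou5f1, held 118, 109.6 and 119 CPM at D3, 32.5, 28.3 and 31 CPM at D5 and 89.3, 113 and 180.1 CPM at D8, against 184, 198 and 195 CPM in EpiSC, 304, 320.0 and 334 CPM in rES and 234, 232 and 241 CPM in ESC. Its 9-pair adjusted p of 0.0109 became 0.0737 without D8 replicate 1 and 0.0659 without D8 replicate 2. In bulk libraries, fewer cells of a type and less RNA per cell cannot be told apart.

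Sox2 and Nanog were called lower in the mean contrast, and neither passed the 9-pair test. Sox2 held 12.1, 10.2 and 11.5 CPM at D3, 10.7, 5.21 and 9.36 CPM at D5 and 72.8, 86 and 190.2 CPM at D8, against 171, 175 and 220.4 CPM in EpiSC, 577, 572 and 567 CPM in rES and 301, 291 and 246 CPM in ESC (mean contrast -3.80 ± 0.17, 9-pair adjusted p = 0.101). D8 replicate 3 lay within the EpiSC range for Sox2, and the other 8 intermediate libraries lay below every end-state library. Nanog held 4.76, 4.28 and 3.64 CPM at D3, 17.4, 13.8 and 19.4 CPM at D5 and 207, 283 and 346 CPM at D8, against 41.7, 47.1 and 33.8 CPM in EpiSC, 825, 829 and 835 CPM in rES and 1113, 1090.5 and 1139.9 CPM in ESC (mean contrast -3.63 ± 0.10). At D8 Nanog was above EpiSC, so its mean contrast combined days below EpiSC with a day above it. The summed level of the 15 genes was 318 to 1640.0 CPM on the intermediate side and 3088 to 3579 CPM on the end-state side, without overlap. Some members outside the 6 were split by end state and were not lower at every day. Lin28a, an RNA-binding protein, averaged 765, 252, 17.8, 11, 10.7 and 37.4 CPM in EpiSC, D3, D5, D8, rES and ESC, while Dppa2 averaged 0.295, 7.59, 4.86, 73.6, 187 and 135 CPM in the same order.

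**Figure D3:**
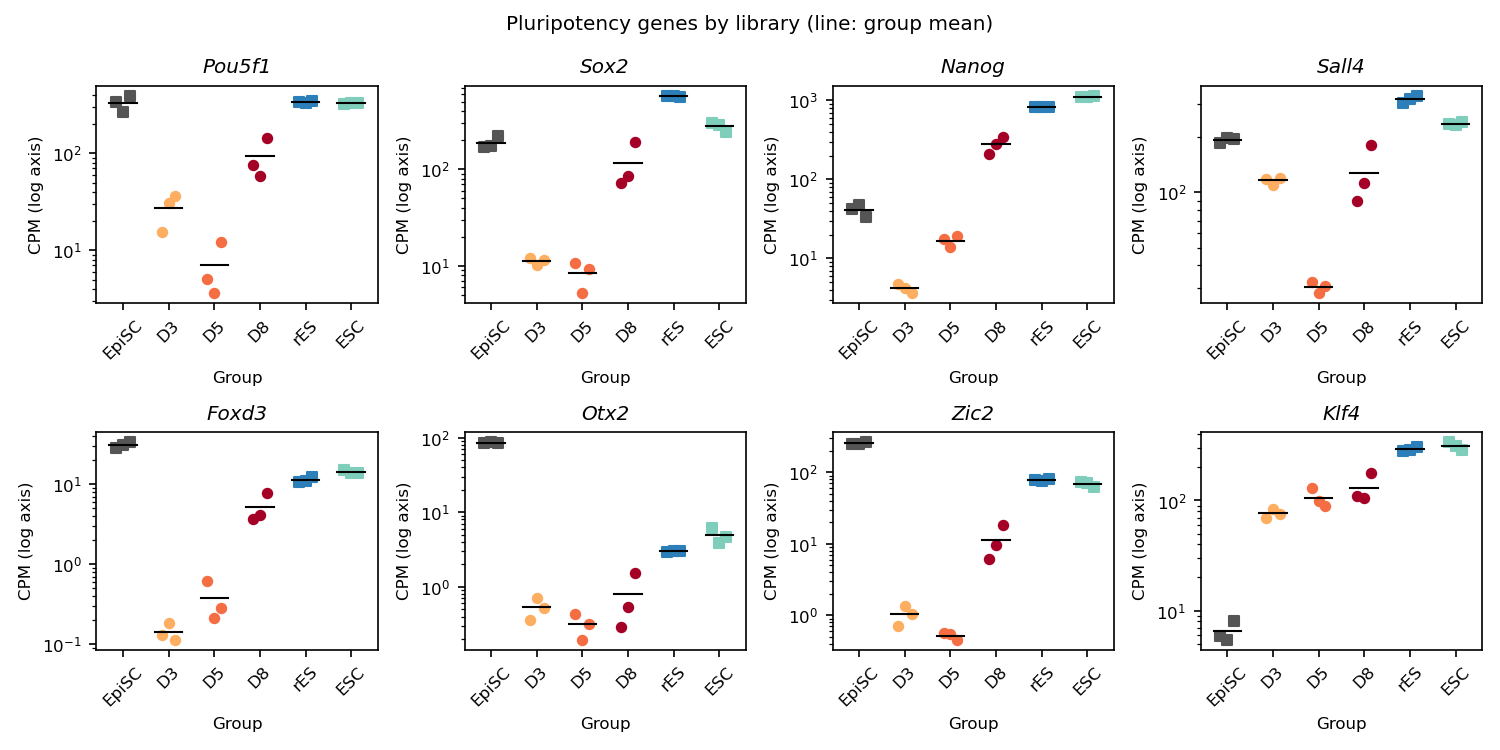
CPM by library (log axis; points, with a line at the group mean) for 8 pluripotency genes across the 6 groups in the order EpiSC, D3, D5, D8, rES, ESC. Pou5f1, Sall4, Foxd3, Otx2 and Zic2 are below every end-state library on every day, while Nanog at D8 and Klf4 on all days are above EpiSC.

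Naive markers gave no common pattern. Of 15, 3 were called higher (20%, against 42.0% of all genes) and 7 lower (46.7%, against 34.8%). None passed the 9-pair test in either direction. Klf4, a naive factor, held 69.7, 84.3 and 75.8 CPM at D3, 129, 99.1 and 88.3 CPM at D5 and 109.8, 106 and 176 CPM at D8, against 5.91, 5.45 and 8.13 CPM in EpiSC, 281, 288 and 305 CPM in rES and 337, 310.5 and 286 CPM in ESC. All 9 intermediate libraries of Klf4 lay above EpiSC and below rES and ESC, with a mean contrast of 0.28 ± 0.10 (adjusted p = 0.0199). Without the EpiSC group that value was -1.56, and the call was lost with upper-quartile scaling (adjusted p = 0.222) and without D5 replicate 1 (adjusted p = 0.0523). Esrrb averaged 3.26, 23.9, 14.1, 187, 671 and 782 CPM in EpiSC, D3, D5, D8, rES and ESC. Tbx3 averaged 0.0519, 94.5, 48.3, 138, 224 and 252 CPM in the same order, and Prdm14 averaged 0.0675, 0.0408, 2.14, 23.3, 73.6 and 51.4 CPM. Zfp42 averaged 0, 1.12, 3.49, 61.2, 265 and 318 CPM and was not called (adjusted p = 0.594). That outcome depended on the method, as limma-trend called Zfp42 lower (-1.16, adjusted p = 6.12e-08). Fgf4, a growth factor ligand made by pluripotent cells, averaged 48.6, 1.55, 6.73, 92.8, 274 and 300.4 CPM, below EpiSC at D3 and D5 and above it at D8 (mean contrast -3.99 ± 0.13).

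Primed markers were mostly highest in EpiSC. Of the 14 tested, 3 were called higher (21.4%, against 42.0% of all genes) and 10 lower (71.4%, against 34.8%). Otx2, Zic2, Zic5 and Lefty1 passed the 9-pair test as lower (28.6%, against 5.59% of all genes). Otx2, a homeobox factor of the primed state, held 0.359, 0.704 and 0.527 CPM at D3, 0.433, 0.196 and 0.320 CPM at D5 and 0.293, 0.540 and 1.56 CPM at D8, against 84.9, 86.3 and 84.4 CPM in EpiSC, 2.94, 3.04 and 3.0 CPM in rES and 6.19, 3.85 and 4.72 CPM in ESC (mean contrast -4.32 ± 0.22, 9-pair adjusted p = 0.000491). Otx2 was thus below even its low level in rES and ESC on every day. Lefty1, a secreted inhibitor of Nodal, averaged 73.9, 2.77, 6.21, 12.4, 22.5 and 61.4 CPM in EpiSC, D3, D5, D8, rES and ESC (9-pair adjusted p = 0.0304). Fgf5 averaged 64.2, 0.143, 0.776, 1.38, 0.127 and 0.0870 CPM in the same order and was not called (adjusted p = 0.0998). Pou3f1 went from 195 ± 33.9 CPM in EpiSC through 46.6, 23.4 and 9.54 CPM to 4.29 ± 0.399 CPM in rES and 1.57 ± 0.245 CPM in ESC. Its positive mean contrast of 0.99 ± 0.10 goes with days that lay between EpiSC and the 2 naive end states. Dnmt3b, a de novo DNA methyltransferase, averaged 1248, 104.8, 38.3, 54.1, 138 and 71.5 CPM and did not pass the 9-pair test.

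Most transcription factors of trophoblast in the list were higher across the course. Of 15, 14 were called higher (93.3%, against 42.0% of all genes) and 1, Eomes, lower. The 9-pair test passed 9 (60.0%) as higher, against 11.0% of all genes. The 9 were Gata2, Gata3, Elf5, Esx1, Hand1, Ets2, Gcm1, Ovol1 and Dlx3, and the list median was 5.72, or 5.09 with groups without counts set to a floor of 12 counts per library. Hand1, a factor of trophoblast giant cells and of mesoderm, held 434, 453 and 486 CPM at D3, 40.6, 42.4 and 36.1 CPM at D5 and 9.8, 14 and 12.5 CPM at D8. In the end states it held 0.771, 0.396 and 1.4 CPM in EpiSC, 0.254, 0 and 0 CPM in rES and 0, 0 and 0 CPM in ESC, so it was highest at D3 and lowest of the days at D8, still above every end state. Dlx3, a homeobox factor of the placental labyrinth, held 96.9, 121 and 115 CPM at D3, 162, 146 and 125 CPM at D5 and 124, 101 and 111 CPM at D8, and its 9 end-state libraries ranged over 0.115, 0.367 and 1.37 CPM. Its days were not called different (adjusted p = 0.0711), and its mean contrast was 8.17 ± 0.15. Gcm1, which directs syncytiotrophoblast, averaged 1.69, 101 and 41.7 CPM at D3, D5 and D8, and Esx1, an X-linked placental homeobox gene, averaged 321, 135 and 87.8 CPM. These 2 genes therefore peaked on different days. Gata3 averaged 25, 33 and 35.4 CPM on the 3 days and 1.29, 0.446 and 0.285 CPM in EpiSC, rES and ESC.

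Cdx2, Eomes and Tfap2c, of the same list, were among those that did not pass the 9-pair test. Cdx2, which starts the trophoblast lineage, averaged 0, 30.8, 1.77, 1.65, 2.8 and 0.854 CPM in EpiSC, D3, D5, D8, rES and ESC, high at D3 only. Eomes averaged 9.89, 24.7, 0.474, 1.85, 9.06 and 17.2 CPM in that order, highest at D3 and under every end state at D5 and D8. Tfap2c averaged 2.1, 201, 225, 179.5, 164 and 82.8 CPM, with all 9 intermediate libraries above all end-state libraries but a 9-pair adjusted p of 1, since rES was close.

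Most tested genes of the differentiated placenta were higher too. Of 11 tested, 9 were called higher (42.0% of all genes were) and none lower, and 8 passed the 9-pair test as higher (72.7%, against 11.0% of all genes), or 6 with DESeq2. Tpbpa, Prl3d1, Prl2c2 and Ctsq, markers of spongiotrophoblast and giant cells, had too few counts to be tested. Synb, an envelope-derived protein that fuses syncytiotrophoblast, averaged 0.381, 141 and 206 CPM at D3, D5 and D8 and had no count in rES or ESC. Its 9-pair adjusted p of 0.0441 is close to the threshold, with D3 the lowest day. It became 0.0921 with DESeq2 and 0.122 with counts divided by 4, and it was above the threshold without any one of 9 libraries, from 0.0533 without D8 replicate 1 to 0.224 without D3 replicate 2. Pparg, a nuclear receptor of labyrinth trophoblast and fat cells, averaged 9.36, 137 and 175 CPM on the 3 days and at most 0.151 CPM in an end state. Peg10, an imprinted retrotransposon-derived gene needed for the placenta, averaged 141, 8004, 16149, 14608, 18.6 and 301 CPM in EpiSC, D3, D5, D8, rES and ESC. Rhox6 and Rhox9, X-linked homeobox genes of placenta and germ cells, averaged 32.8, 229 and 145 and 23.2, 150.4 and 113 CPM at D3, D5 and D8. Lgals9, a galectin, averaged 14.9, 123 and 366 CPM. D3 was thus the lowest day for each of these 6 genes.

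Targets of BMP-SMAD signalling, a pathway that can drive pluripotent cells toward trophoblast and mesoderm, were all 15 called higher (42.0% of all genes were). Only 6 passed the 9-pair test (40%, against 11.0% of all genes), namely Id1, Msx2, Dlx3, Dlx5, Bmp4 and Gata2. Dlx3 and Gata2 are also among the trophoblast factors that passed. Msx2 held 115, 115 and 113 CPM at D3, 137, 153 and 132 CPM at D5 and 115, 109 and 91.1 CPM at D8, against 0.257, 0.238 and 0.576 CPM in EpiSC, 4.78, 5.39 and 6.11 CPM in rES and 8.26, 7.96 and 7.25 CPM in ESC (mean contrast 5.54 ± 0.10). Id1, an inhibitor of differentiation factors, averaged 7.38, 248, 40.2, 16.3, 2.45 and 3.49 CPM in EpiSC, D3, D5, D8, rES and ESC. Id2, Id3, Msx1, Smad6 and Bambi had the same shape, highest at D3, with D8 means of 36.2, 16.8, 0.389, 7.06 and 16.8 CPM. The summed level of the list went from 1853 CPM at D3 to 829 CPM at D8 and was 102 to 196 CPM in the end states.

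Most keratin and desmosome genes were higher at every day than in every end state. Of 13 keratin and desmosome genes, 12 were called higher (92.3%, against 42.0% of all genes) and 9 (69.2%, against 11.0%) passed the 9-pair test. Krt8 and Krt18, the paired keratins of simple epithelia, averaged 122, 1360.3, 2452, 2174, 7.86 and 35.2 CPM and 129.6, 768, 1522, 1391, 1.67 and 4.55 CPM in EpiSC, D3, D5, D8, rES and ESC. Both were well above 0 in EpiSC and lower in rES and ESC, so EpiSC was the nearest end state. Dsp, the desmosome linker, averaged 39.3, 631, 594, 835, 65.1 and 95.8 CPM and Dsc2, a desmosomal cadherin, 18.4, 140.2, 401, 425, 3.67 and 1.98 CPM. Dsg2 averaged 40.6, 119, 141, 126, 154 and 269 CPM, with ESC above every day. The summed level was 3989 to 6741 CPM on the intermediate side and 452 to 700.3 CPM on the other. Of 14 claudin and tight junction genes, 13 were called higher (92.9%, against 42.0% of all genes). Only Cldn3, Cldn4 and F11r (21.4%, against 11.0%) passed the 9-pair test. With upper-quartile scaling 11 were called higher and 1 lower. Cldn4 held 323, 389.9 and 427 CPM at D3, 977, 1074 and 981 CPM at D5 and 1913, 1643 and 1401 CPM at D8, against 4.01, 3.53 and 8.63 CPM in EpiSC, 53.2, 52.7 and 52.8 CPM in rES and 95.4, 100.1 and 99 CPM in ESC (mean contrast 4.82 ± 0.14). Tjp1, a common scaffold protein, averaged 377, 336 and 229 CPM on the 3 days and 329, 202 and 199.6 CPM in EpiSC, rES and ESC.

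Annexins and S100 proteins, calcium-binding proteins of membranes and cytoskeleton, were called higher for all 17 tested (42.0% of all genes were). The 9-pair test passed 11 (64.7%, against 11.0% of all genes). S100a6 held 338, 468 and 480.2 CPM at D3, 178, 189 and 165 CPM at D5 and 127, 127 and 100.2 CPM at D8, against 18.3, 15.5 and 21.4 CPM in EpiSC, 1.0, 0.610 and 0.980 CPM in rES and 1.67, 1.21 and 1.65 CPM in ESC (mean contrast 6.14 ± 0.11). Anxa2 averaged 48.3, 650.3, 374, 443, 1.92 and 8.21 CPM in EpiSC, D3, D5, D8, rES and ESC, and Anxa5 averaged 31, 190.5, 383, 552, 15.4 and 10.3 CPM. The summed level of the list was nearly flat over the days, at 2445, 2336 and 2591 CPM, against 388 to 589 CPM in the end states.

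Imprinted genes, expressed from one parental copy, included Peg10 and Igf2, the genes with the highest group means of the intermediate days. Of 20, 14 were called higher (70%, against 42.0% of all genes) and 6 lower (30%, under the 34.8% of all genes). Igf2, H19, Peg10, Peg3, Phlda2, Igf2r and Zim1 passed the 9-pair test as higher (35%, against 11.0%). H19, a long non-coding RNA next to Igf2, held 1505, 1456 and 2254 CPM at D3, 990.0, 987 and 993 CPM at D5 and 1405, 1800.0 and 1388 CPM at D8, against 7.74, 7.34 and 11.4 CPM in EpiSC, 5.08, 5.1 and 4.38 CPM in rES and 2.72, 2.85 and 1.58 CPM in ESC (mean contrast 8.20 ± 0.15). Phlda2, which restrains placental growth, averaged 27.7, 1754, 1414, 648, 1.64 and 1.45 CPM in EpiSC, D3, D5, D8, rES and ESC. Igf2r, the receptor that clears Igf2, averaged 176, 1062, 1712, 2224, 203 and 133 CPM. The 20 genes summed to 26248 to 35762 CPM on the intermediate side, mostly Igf2 and Peg10, and 659.6 to 1924 CPM on the end-state side. Meg3, Rian and Mirg, non-coding RNAs of one cluster, were called lower with EpiSC means of 71.5, 209 and 19.6 CPM and D8 means of 2.18, 12.9 and 0.724 CPM. None of those 3 passed the 9-pair test.

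Lysosomal genes were higher, most of all at D8. Of 22, 21 were called higher (95.5%, against 42.0% of all genes) and 1, Glb1, lower. The 9-pair test passed 9 as higher (40.9%, against 11.0%). Psap, the precursor of lipid-degrading cofactors, held 633, 623 and 656 CPM at D3, 2375, 2343 and 2230.3 CPM at D5 and 2702, 2351 and 2158 CPM at D8, against 203, 203 and 219 CPM in EpiSC, 367, 369 and 376 CPM in rES and 373, 385 and 350.2 CPM in ESC (mean contrast 2.32 ± 0.04). Ctsd, an aspartic protease, averaged 199, 700.2, 1239, 1974, 419.8 and 237 CPM in EpiSC, D3, D5, D8, rES and ESC, and Ctsb, a cysteine protease, 57.9, 310.3, 943, 1921, 239 and 234 CPM. The 9-pair call of Ctsb was lost with DESeq2's size factors (adjusted p = 0.102 in edgeR) and with upper-quartile scaling (adjusted p = 0.0638). The summed level went from 4709 CPM at D3 to 13144 CPM at D8, against 1912 to 3755 CPM in the end states. Genes of MHC class I, which presents peptides to T cells, were called higher for 9 of 11 (81.8%, against 42.0% of all genes). The 9-pair test passed 6 (54.5%, against 11.0%). H2-K1 and H2-D1, whose reads may be split with close paralogs, averaged 33.3, 93.8, 228, 176, 6.74 and 8.34 CPM and 11.3, 36.9, 124, 121, 2.67 and 1.99 CPM in EpiSC, D3, D5, D8, rES and ESC. B2m, the shared light chain, averaged 39.5, 85.8, 148, 203, 11.8 and 18.7 CPM.

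Interferon-stimulated genes were highest in sum at D8, and their sum at D3 lay within the end-state range. Of 17, 14 were called higher (82.4%, against 42.0% of all genes) and 1, Irf1, lower. The 9-pair test passed 4 as higher (23.5%, against 11.0% of all genes). These 4, Isg15, Irf7, Usp18 and Rsad2, were above every end state at D3 as well. Isg15, a ubiquitin-like protein, held 0.701, 0.994 and 1.57 CPM at D3, 61.8, 60.6 and 53.3 CPM at D5 and 109, 109 and 101 CPM at D8, against 0, 0.0634 and 0.436 CPM in EpiSC, 0.0953, 0.247 and 0 CPM in rES and 0, 0.0491 and 0 CPM in ESC. Its D3 level was low beside D5 and D8, and its 9-pair adjusted p of 0.00252 became 0.0960 with DESeq2. Usp18, which removes Isg15 from proteins, averaged 0.245, 2.95, 94.3, 182, 0.170 and 0.170 CPM in EpiSC, D3, D5, D8, rES and ESC (9-pair adjusted p = 0.000228, or 0.0526 with DESeq2). The summed level was 212 CPM at D3, against an end-state range of 173 to 327 CPM, and 1137 and 2092 CPM at D5 and D8.

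Genes of DNA replication fell together. All 20 were called lower (34.8% of all genes were), and 14 (70.0%) passed the 9-pair test as lower, against 5.59% of all genes. Pola1, the catalytic subunit of the priming polymerase, held 42.1, 38 and 31.7 CPM at D3, 29.8, 31 and 36.3 CPM at D5 and 36.9, 38.1 and 52.4 CPM at D8, against 103, 97.9 and 93 CPM in EpiSC, 164, 163 and 163 CPM in rES and 182, 187 and 211 CPM in ESC (mean contrast -1.97 ± 0.07, 9-pair adjusted p = 4.8e-07). Mcm2, of the replicative helicase, averaged 572, 313, 177, 178, 697 and 797 CPM in EpiSC, D3, D5, D8, rES and ESC, and the other 5 subunits of that helicase in the list, Mcm3 to Mcm7, passed too. The 6 that did not pass included Rrm1, Rrm2 and Tyms of nucleotide supply. All 18 mitosis genes were called lower (34.8% of all genes were) and 8 passed the 9-pair test (44.4%, against 5.59%). Top2a, which untangles chromosomes, averaged 1127, 607, 315, 202, 762 and 834 CPM, and its 9-pair adjusted p of 0.0483 was above the threshold without any one of 15 libraries, reaching 0.246 without D3 replicate 3. Bub1, of the spindle checkpoint, averaged 273, 78.1, 50.7, 45.6, 110.1 and 159 CPM (9-pair adjusted p = 0.00751, or 0.0544 without D3 replicate 3). Of 11 CDK inhibitors and D cyclins, 7 were called higher (63.6%, against 42.0% of all genes) and 1 lower (9.09%, against 34.8%). The 9-pair test passed 1 as higher (9.09%, near the 11.0% of all genes). This gene, Cdkn2b, which blocks CDK4 and CDK6, stood at 31.3, 33.9 and 40.9 CPM at D3, 46.4, 50.3 and 46.1 CPM at D5 and 41.7, 43.5 and 31.4 CPM at D8, against 1.57, 2.01 and 1.59 CPM in EpiSC, 5.31, 5.03 and 4.93 CPM in rES and 4.0, 4.99 and 3.74 CPM in ESC. Ccnd1 averaged 243, 347, 9.78, 27.9, 259 and 199.8 CPM, above the mean of every end state at D3 and under them at D5 and D8. LTO1, on the opposite strand, covers 23.4% of the exon bases of Ccnd1.

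Ribosome biogenesis genes were lower as well. All 20 were called lower (34.8% of all genes were) and 7 passed the 9-pair test (35%, against 5.59%). The list median was -0.71 beside -1.37 for replication. Npm1, a nucleolar chaperone, held 1287, 1331 and 1316 CPM at D3, 841, 726 and 766 CPM at D5 and 647, 698 and 872 CPM at D8, against 2401, 2666 and 2464 CPM in EpiSC, 1754, 1781 and 1771 CPM in rES and 1874, 1886 and 1763 CPM in ESC (mean contrast -1.15 ± 0.05). Dkc1, which modifies ribosomal RNA, averaged 208, 97.1, 25, 59.2, 209 and 247 CPM in EpiSC, D3, D5, D8, rES and ESC. Summed levels were lower at D8 than at D3 for replication (3475 to 1570.4 CPM), mitosis (3579.7 to 1246 CPM) and ribosome biogenesis (6112 to 3457 CPM). The end-state ranges were 5106 to 6212, 4183 to 6081 and 7469 to 9438 CPM, above every intermediate library.

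**Figure D4:**
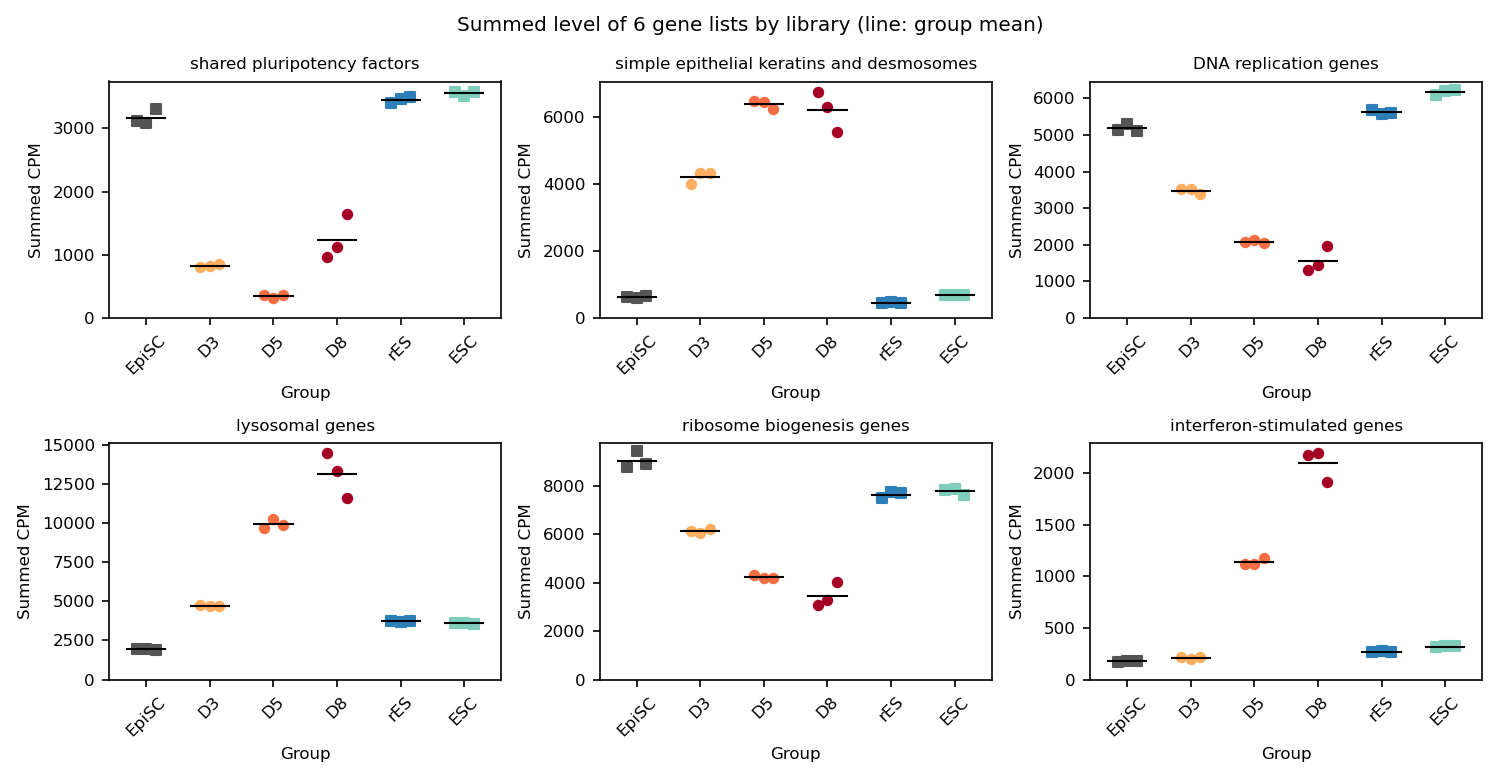
Summed CPM of 6 gene lists in each of the 18 libraries (linear axes from 0) in the order EpiSC, D3, D5, D8, rES, ESC, with circles for the intermediate days, squares for the end states and a line at each group mean. Replication and ribosome biogenesis are lowest at D8, lysosomal genes are highest at D8, and interferon-stimulated genes at D3 lie within the end-state range.

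Genes of the integrated stress response and serine synthesis, which supply amino acids and one-carbon units, were mostly called lower. Of 16, 14 were called lower (87.5%, against 34.8% of all genes) and Ddit3 and Slc7a11 higher (12.5%, against 42.0%). The 7 that passed the 9-pair test as lower (43.8%, against 5.59% of all genes) were Atf4, Asns, Psat1, Shmt2, Mthfd2, Aldh18a1 and Pycr1. Asns, which makes asparagine, held 89.9, 89.1 and 84.6 CPM at D3, 128, 120.4 and 123 CPM at D5 and 270.1, 312 and 385 CPM at D8, against 675, 664 and 651 CPM in EpiSC, 1112, 1116 and 1108 CPM in rES and 1240.1, 1209 and 1285 CPM in ESC (mean contrast -2.68 ± 0.05). It was highest of the days at D8 and stayed under every end state. Mthfd2, of mitochondrial one-carbon metabolism, averaged 297, 74.7, 42.9, 28.1, 108 and 195 CPM in EpiSC, D3, D5, D8, rES and ESC. Aldh18a1 and Pycr1 act in one pathway, from glutamate to proline, and Aldh18a1 averaged 220.0, 59.6, 39.1, 26.6, 82.8 and 133 CPM.

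Of 21 glycolysis genes, 6 were called higher (28.6%, against 42.0% of all genes) and 13 lower (61.9%, against 34.8%). Hk2, which phosphorylates glucose, Gpi1, Pfkm and Gapdh passed the 9-pair test as lower. Hk2 held 83.6, 93.2 and 112 CPM at D3, 47.7, 42.1 and 37 CPM at D5 and 74.1, 95.4 and 110.3 CPM at D8, against 209, 213 and 263 CPM in EpiSC, 253, 239 and 232 CPM in rES and 237, 238 and 236 CPM in ESC (mean contrast -1.70 ± 0.08), and its end states were not called different (adjusted p = 0.859). Slc2a1, a glucose transporter, averaged 762, 783, 2436, 3186, 133 and 146 CPM in EpiSC, D3, D5, D8, rES and ESC, so that D3 was at the EpiSC level. Ldha and Pkm averaged 2162, 742, 397, 333, 216 and 447 and 4614, 2490.2, 1294, 1164, 1475 and 1439 CPM in that order, highest in EpiSC.

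The series is titled for Cpt1a, which carries long-chain fatty acids toward oxidation. Cpt1a held 25.2, 23.8 and 23.9 CPM at D3, 43.1, 43 and 40.5 CPM at D5 and 73.5, 86.8 and 110.3 CPM at D8, against 1.8, 1.43 and 1.62 CPM in EpiSC, 313, 296 and 290.5 CPM in rES and 194, 194 and 189 CPM in ESC. Every day was above EpiSC and below rES and ESC, in rising order, and the mean contrast was near 0 at -0.01 (adjusted p = 1). Cpt2, its partner in the inner mitochondrial membrane, held 50.7, 47.2 and 40.4 CPM at D3, 86.3, 96.1 and 93.6 CPM at D5 and 96.9, 82.4 and 64.3 CPM at D8, against 53, 50.1 and 45.4 CPM in EpiSC, 24.9, 31.1 and 27.7 CPM in rES and 26.6, 25.9 and 26.7 CPM in ESC (mean contrast 1.08 ± 0.07), with D3 at the EpiSC level. Of 23 fatty acid oxidation genes, 17 were called higher (73.9%, against 42.0% of all genes) and 3 lower (13.0%, against 34.8%). The 9-pair test passed 4 (17.4%, against 11.0% of all genes) as higher, among them Acadvl, Eci2 and Etfdh. Acadvl, which oxidises very long chains, averaged 10.1, 33.4, 70.3, 50.4, 16.4 and 10.4 CPM in EpiSC, D3, D5, D8, rES and ESC, and 42.9% of its exon bases lie opposite Dvl2.

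Genes that build and break down triglyceride had a list median of 1.14, beside 0.43 for the oxidation genes. Of 19, 14 were called higher (73.7%, against 42.0% of all genes) and 2 lower (10.5%, against 34.8%). The 9-pair test passed 8 as higher (42.1%, against 11.0%) and 1, Lpin1, as lower (5.26%, near the 5.59% of all genes). The 8 were Dgat2, Gpat3, Lpin2, Mogat2, Pnpla2, Abhd5, Mgll and Fitm2, which include both synthetic and lipolytic steps. Dgat2, which adds the last acyl chain of triglyceride, held 115, 114 and 112 CPM at D3, 268, 263 and 248 CPM at D5 and 236, 206 and 174 CPM at D8, against 22.1, 20.4 and 19.6 CPM in EpiSC, 4.53, 4.73 and 5.07 CPM in rES and 4.24, 3.86 and 2.97 CPM in ESC (mean contrast 4.67 ± 0.07, 9-pair adjusted p = 1.33e-11). Gpat3, of the first acylation step, averaged 0.273, 49.5, 107, 170.1, 3.73 and 1.48 CPM in EpiSC, D3, D5, D8, rES and ESC. An RNA on the opposite strand covers 30% of the exon bases of Gpat3. Abhd5, which activates the lipase encoded by Pnpla2, averaged 29.2, 57, 127, 130.0, 19.8 and 11.2 CPM, and Pnpla2 44.5, 72.1, 93.4, 111, 40.3 and 38.8 CPM. Lpin1, a phosphatidate phosphatase, averaged 84, 39.6, 31.6, 45.2, 81 and 61.1 CPM.

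Feedback genes of ERK signalling, which report growth factor input, were called lower for 10 of 14 (71.4%, against 34.8% of all genes). Another 3 were called higher (21.4%, against 42.0%). Spry2, Etv1, Etv5 and Il17rd passed the 9-pair test as lower (28.6%, against 5.59%). Spry2, an inhibitor of receptor signalling, held 15.6, 13.4 and 15.6 CPM at D3, 1.4, 1.73 and 1.13 CPM at D5 and 7.41, 5.99 and 7.78 CPM at D8, against 50.01, 46.1 and 56.7 CPM in EpiSC, 46.3, 45.2 and 48.5 CPM in rES and 66.6, 67.7 and 78.1 CPM in ESC (mean contrast -3.37 ± 0.08). Dusp6, an ERK phosphatase, averaged 477, 46.2, 0.769, 1.91, 2.5 and 7.66 CPM in EpiSC, D3, D5, D8, rES and ESC, and D5 was its lowest group. Of 12 Hippo pathway targets, 9 were called higher (75%, against 42.0% of all genes) and 2 lower (16.7%, against 34.8%). Ankrd1, Lats2 and Axl passed the 9-pair test as higher (25.0%, against 11.0% of all genes) and Ajuba as lower (8.33%, against 5.59%). Another gene model on the same strand covers 42.4% of the exon bases of Lats2. The usual reporters Ccn1 and Ccn2 averaged 144, 85.9, 61, 93, 20.2 and 131 and 12.2, 17.7, 78.5, 98.4, 44.7 and 169 CPM. Of 13 p53 targets, 7 were called higher (53.8%, against 42.0% of all genes) and 5 lower (38.5%, near the 34.8% of all genes). The 9-pair test passed 2 as higher (15.4%, near the 11.0% of all genes), Perp and Btg2. Cdkn1a averaged 39.7, 196, 141, 209.8, 275 and 149.8 CPM. Of 16 DNA methylation and Polycomb genes, 4 were called higher (25%, against 42.0% of all genes) and 10 lower (62.5%, against 34.8%). In each direction 1 (6.25%) passed the 9-pair test, against 11.0% of all genes as higher and 5.59% as lower. Tet3, which oxidises methylcytosine, passed as higher at 46.7, 85.2, 243, 147, 17.1 and 14.9 CPM, and Ezh2, the Polycomb methyltransferase, passed as lower at 207, 128, 109, 73, 203 and 247 CPM. Tet1 averaged 117, 25.6, 8.91, 117, 531 and 528 CPM, about the same at D8 and in EpiSC.

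Germline genes were called in the mean contrast alone. Of 14, 9 were called lower (64.3%, against 34.8% of all genes) and none passed the 9-pair test. Dazl, an RNA-binding protein of germ cells, averaged 0.114, 0.0489, 0.858, 145, 739 and 291.7 CPM in EpiSC, D3, D5, D8, rES and ESC. Rpl10l, a ribosomal protein copy of the testis, averaged 0.0419, 0, 0.530, 66.2, 293 and 261 CPM, near 0 up to D5 and higher from D8 on. The 4 genes with the largest negative mean contrast outside the 9-pair set were also highest in rES and ESC. Among them were Nphs1, AU022751 and Ntrk3, at 0.743, 0, 0, 3.46, 25 and 17.7, 0.448, 0, 0, 5.11, 17.8 and 42.3 and 1.24, 0.0843, 0, 0.982, 8.81 and 11.4 CPM in EpiSC, D3, D5, D8, rES and ESC. On the positive side Serpinb9e, Serpinb9g and Serpinb9f, close paralogs of a protease inhibitor whose reads may be split, averaged 0.168, 43.7 and 289.8, 0.193, 11.7 and 98.2 and 0.112, 17 and 113 CPM at D3, D5 and D8 and were near 0 in every end state. Their D3 levels were near 0 as well.

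Markers of other cell types moved with the course, and their part in the results above was not tested. Of 17 fibroblast and matrix genes, 16 were called higher (94.1%, against 42.0% of all genes) and Fn1 lower. Col1a1, Col5a1, Col6a1 and Sparc passed the 9-pair test as higher (23.5%, against 11.0%). The sums of the 17 genes were 2628 to 5081 CPM on the intermediate side and 617 to 2942 CPM on the other, which overlap. Col3a1 held 16.8, 13.4 and 20.03 CPM at D3, 137, 150.2 and 167 CPM at D5 and 169, 387 and 207 CPM at D8, against 1.99, 2.65 and 2.57 CPM in EpiSC, 0.111, 0.115 and 0.122 CPM in rES and 17.1, 22.1 and 20.02 CPM in ESC, so ESC libraries reached the D3 level. Postn averaged 0.444, 0.887, 122, 163, 0.0660 and 2.66 CPM in EpiSC, D3, D5, D8, rES and ESC, while Thy1 averaged 10.6, 38.3, 2.34, 1.32, 1.03 and 0.805 CPM. Of 10 blood genes, 7 were called higher (70%, against 42.0% of all genes). The 9-pair test passed 1 of the 10, Gata1, a share near the 11.0% of all genes. The embryonic globin gene Hba-x held 0.375, 0 and 0 CPM at D3, 111, 96.6 and 108 CPM at D5 and 17.6, 31.8 and 31.9 CPM at D8 and no count in any end state, and its call in the mean contrast was lost without D3 replicate 1. Blood genes summed to 12.1 to 332 CPM against 1.25 to 8.33 CPM, and Ptprc, the pan-leukocyte marker, was at 0.126 CPM or less on the intermediate days.

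Endothelial genes gave 5 of 10 called higher (50%, against 42.0% of all genes) and 2 lower (20%, against 34.8%). None passed the 9-pair test, and the sums overlapped at 56 to 219 and 63.7 to 312 CPM. Cdh5, an endothelial cadherin, averaged 1.65, 40.2, 3.38, 4.31, 0.0868 and 0.0328 CPM in EpiSC, D3, D5, D8, rES and ESC. Of 14 primitive and visceral endoderm genes, 9 were called higher (64.3%, against 42.0% of all genes) and Apoe lower. Pdgfra and Cubn passed the 9-pair test as higher (14.3%, near the 11.0% of all genes). Pdgfra, a receptor of primitive endoderm and mesenchyme, averaged 0.510, 23.2, 26.5, 26.5, 2.39 and 1.08 CPM, Gata6 0.724, 9.69, 12.8, 16.3, 6.31 and 1.5 CPM, and Afp at most 0.225 CPM on a day. Of 7 neural genes, 2 were called higher (28.6%, against 42.0% of all genes) and 3 lower (42.9%, against 34.8%), and none passed. Sox1 averaged 11.6, 0.0584, 0.174, 3.39, 3.7 and 8.58 CPM.

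**Figure D5:**
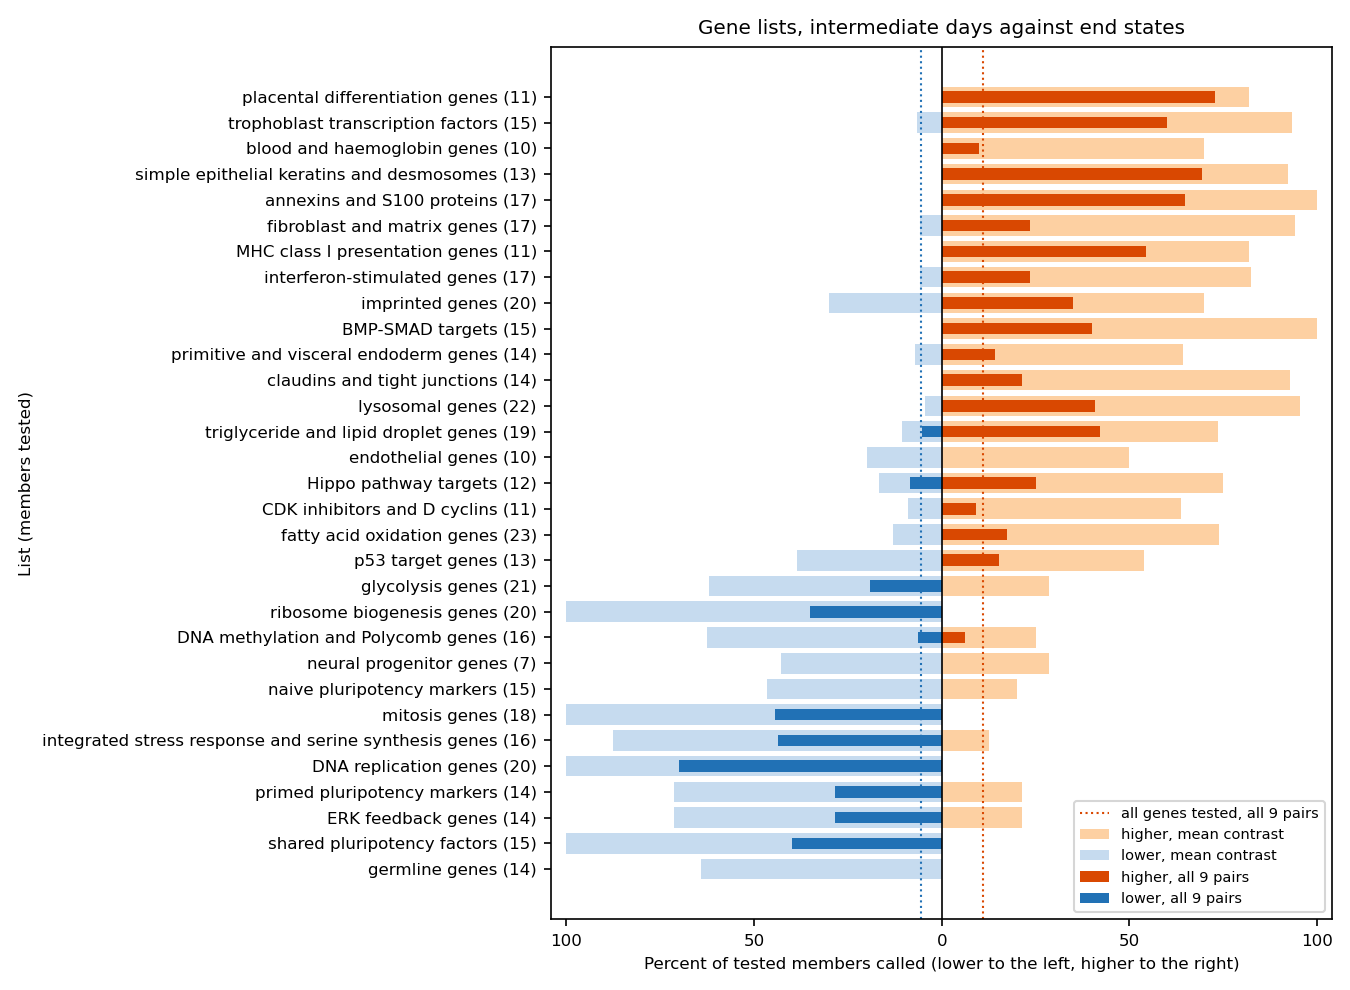
Percent of the tested members of each of the 31 gene lists called in the mean contrast (pale bars) and in the 9-pair test (dark bars), lower to the left and higher to the right, with dotted lines at the 9-pair shares of all genes tested, 5.59% and 11.0%. Placental, keratin, annexin and trophoblast lists have the longest dark bars to the right, and replication has the longest to the left at 70.0%.

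Short motifs before the start sites were counted as a description. Windows of 250 bases were available for 11054 tested genes with a single start, among them 1158 of the genes higher throughout and 661 of those lower. The letters searched, on both strands, with a window counted once per motif and no motif containing another, were those of 7 known motifs. AP-2 was searched as GCCNNNGGC and TEAD as GGAATG. For the octamer the letters were ATTTGCAT, and for GATA they were AGATAA. AP-1 was searched as TGANTCA, CRE as TGACGTCA and the TATA box as TATAAA. The AP-2 letters were in 21.3% of the higher, 17.1% of the lower and 19.8% of all windows. The AP-1 letters were in 6.91% of the higher, 2.42% of the lower and 4.90% of all windows. The TEAD letters were in 139 of the 1158 higher windows, 61 of the 661 lower windows and 11.1% of all. The GATA letters were in 6.13%, 4.54% and 6.40%, and the octamer in 1.21%, 1.51% and 1.47% of higher, lower and all windows. The CRE letters were in 2.42%, 3.48% and 2.52%, and the TATA letters in 6.65%, 6.81% and 7.68%. Median GC content was 61.2%, 58.8% and 58.8%, and these shares are descriptions without a test.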

How the data were processed

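RNA was depleted of ribosomal RNA with RNase H and sequenced from both ends in 18 libraries, 3 in each of 6 groups, per the labels' protocols. The submitters' processing notes name bcl2fastq, Trim Galore, HISAT2 and the mm10 genome. Which program counted reads, with which annotation and strand, is not given in the sources used here. The authors deposited 1 table of expected counts, made from the aligned reads and not scaled between libraries; they are named so because low values bunch: a median of 314.5 genes per library hold a count of 4, against 157 with 3 and 105.5 with 5. All values were whole, so none was rounded. Libraries held 58362230 to 101607352 counts.

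Genes passing filterByExpr were fitted with edgeR 4.0.16 in R 4.3.3 (quasi-likelihood, TMM scaling, prior count 2, no replicate block), all 6 groups in 1 fit. The 9-pair test kept the largest p of the 9 pairs where all had one sign. All p-values were Benjamini-Hochberg adjusted over 17545 genes, with a threshold of 0.05. Standard errors were derived from the F statistic and are approximate. The fitting scripts were tested on simulated data before use. Alternatives were other scaling (RLE, upper quartile), no filter, counts divided by 4, a replicate block, DESeq2 1.42.0, limma 3.58.1 (trend), and leaving out each library or group. The limma fit was chosen after seeing the data.

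Leading genes were the 12 each way with the largest smallest pairwise difference, provided that the sides did not overlap and 1 group reached 10 CPM. The 4 each way with the largest mean contrast outside the 9-pair set, up to 3 members per list with the largest mean contrast and a short set of pluripotency and Cpt genes were also named. Some genes that these rules chose are not reported here. Other list members, such as those passing the 9-pair test, were named after their values were seen. The members and lists were chosen with earlier results of these data known. Gene positions are from GENCODE on mm10, and 41 of 124 named genes share exon bases with another gene. For 10 of the named genes at least 20% of the exon bases are shared. Same-numbered replicates did not deviate together (median correlation about 0, from -0.061 to 0.053 over 45 pairs), so no pairing by number was seen.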

Additional observations from a re-analysis of the deposited data

Results flagged for a closer look

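For 6 of the named genes, a day lay at least 2-fold above the mean of the 3 end states and another at least 2-fold below it. The test among D3, D5 and D8 called each of them. Other named genes, Esrrb among them, had days on both sides without reaching 2-fold both ways. Values are log2 differences from the end-state mean at D3, D5 and D8. Zfp42, a naive marker, stood at -3.57, -1.96 and 2.16. Prdm14, a naive and germ cell factor, stood at -6.66, -1.73 and 1.69. Cpt1b, the muscle form of the carnitine transferase, stood at -1.85, 3.54 and 4.28, and 81.4% of its exon bases are shared with another gene model on the same strand. Etv4, a target of ERK signalling, stood at 1.10, -7.48 and -4.80. Hormad1, a meiotic gene, stood at -7.42, -7.42 and 2.24, and Rpl10l, a testis copy of a ribosomal protein gene, stood at -9.18, -4.98 and 1.90. Zfp42, Hormad1 and Rpl10l each have a group without counts, so their values depend on the prior count and are no bounds. No test for outlying single values was made within groups of 3 libraries.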

How the results depend on the processing

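Leaving out a group leaves 6 pairs to pass. Leaving out D3 gave 3350 genes higher and 2256 lower in all 6 pairs, and 3772 and 2493 without overlap. Leaving out EpiSC gave 3462 and 2331, and 3748 and 2900 without overlap. Leaving out D5 gave 1920 and 1073, leaving out D8 2127 and 1642, leaving out rES 2260 and 1230 and leaving out ESC 2202 and 1113. With all groups, the 9 pairs passed 1843 and 1078 with RLE, 1679 and 1292 with upper quartile, 1936 and 1178 with DESeq2, 1977 and 1065 with counts divided by 4, 1890 and 943 without a filter, and 1944 and 986 with limma-trend. limma shared 2840 of the 2907 genes. Leaving out 1 library at a time gave 1782 to 1962 higher and 855 to 1090 lower by the 9 pairs, and 7264 to 7396 higher and 5941 to 6142 lower in the mean contrast.

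The mean contrast changed sign for genes at odds between end states, and the cause was not tested. Cpt1a ranged from -0.067 to 0.044 without single libraries and was above 0 without EpiSC replicate 1 (0.017) or D8 replicate 1. It became 0.44 leaving out D3, 0.039 leaving out D5, 1.36 leaving out rES and 1.04 leaving out ESC. Zfp42 became 0.10 leaving out D3, 1.02 leaving out rES and 1.15 leaving out ESC. Leaving out EpiSC gave -1.56 for Klf4, 2.09 for Fgf5, -1.46 for Tbx3 and 0.061 for Nes, and leaving out ESC gave -0.39 for Pou3f1. The calls of Stk31, Hormad1 and Prdm14 were lost without EpiSC replicate 3, and those of Esrrb leaving out rES (adjusted p = 0.110) or ESC (adjusted p = 0.287).

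With the replicate number as a block, the mean contrast called 7304 genes higher and 6050 lower and the 9 pairs passed 1851 and 947, with Synb at an adjusted p of 0.0657 and Top2a at 0.0682. For 7 of 18 libraries, the mean correlation of deviations with libraries of other groups was highest for their own replicate number. With counts divided by 4, 15459 genes were tested and 3757 were called at least 2-fold higher and 2311 lower.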
